A study of Homo sapiens with 16 samples.

Results

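The HMOX1 locus was taken as every peak within 50 kb of the HMOX1 gene body on chromosome 22, in the 14 peak lists of a CUT&RUN study of human melanoma cells. It held 26 of the 163320 peaks in the lists, which merged into 9 of 77674 regions: 3 for anti-MAFG, 4 for anti-MITF and 2 for H3K4me3. CUT&RUN uses an antibody to bring a nuclease to its target in nuclei, and the released fragments are sequenced. WM164, an established human melanoma cell line, overexpressed either GFP, as the control, or MAFG, and no further treatment is named. In each line, called GFP cells and MAFG cells from here on, 3 libraries were made with anti-MAFG, 3 with anti-MITF and 1 with anti-H3K4me3, from about 250000 cells per library. The 2 anti-rabbit IgG samples were not analysed here. The labels do not say what drives the transgenes, whether a line is a clone, or whether replicates came from separate cultures. The sites were chosen by their peak calls in these same libraries, so their calls, fold enrichments and ranks are given as a description, with no test.

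HMOX1 encodes heme oxygenase-1, the stress-inducible enzyme that opens the heme ring and releases biliverdin, carbon monoxide and iron. Its enhancers lie upstream of the gene and carry repeated copies of the antioxidant response element, also called the MAF recognition element. Small MAF proteins such as MAFG have no activation domain of their own and bind these elements as dimers. With BACH1 as partner they repress HMOX1 until heme displaces BACH1, and with NRF2 as partner they activate it. MITF, the lineage factor of pigment cells, binds E-box elements, and H3K4me3 marks active promoters.

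The gene table of assembly GRCh38.p14, the build family that the submitters' processing notes name, places HMOX1 at 35381096 to 35394207 on chromosome 22. The gene is transcribed toward higher coordinates, and distances below are counted from its lower end, called the start. The 113112 bp window also holds the nearer part of TOM1, an endosomal trafficking gene with the microRNA genes MIR3909 and MIR6069 inside its body, and most of MCM5, which encodes a subunit of the replicative helicase. All 22 anti-MAFG and anti-MITF peaks of the window lay in a stretch of 10599 bp, from 9882 bp upstream of the HMOX1 start to 716 bp past it. No peak of these antibodies was called in the rest of the HMOX1 body, over the included part of TOM1 or over the included part of MCM5. Just beyond the window, the nearest region was within MCM5, 51.8 kb past the HMOX1 end, where anti-MITF was called in 3 of 3 GFP-cell and 0 of 3 MAFG-cell libraries.

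The lists give no read totals. For each peak, the enrichment and p-value in the authors' lists were therefore solved together for the whole number of fragments covering the summit and for the background used in calling. Dividing the fragments by the lowest background of a list, its genome-wide level, gave a signal in multiples of that level. This takes out sequencing depth but not differences between libraries in the share of background fragments. Ranks are by the authors' fold enrichment within a list and, since lists differ in length, show no change between lines. The genome-wide level was 0.440 to 0.760 fragments in the GFP-cell anti-MAFG libraries and 0.389 to 0.515 in the MAFG-cell ones. GFP-cell lists of the 2 factors held 14879 to 26221 peaks and MAFG-cell lists 1836 to 2818. In the H3K4me3 lists, 5 of 6 pigment cell genes (PMEL, MLANA, SOX10, MITF and TYR, but not DCT) had a peak within 1000 bp of a gene end in each line, and 0 of 6 genes of other cell types did. The share of all genes with such a peak was not set beside these counts, so they are a description and no check of cell identity.

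Summits of the 12 anti-MAFG and anti-MITF libraries fell into 5 sites when neighbours within 500 bp were chained. Their median distances from the start were -8.8, -5.7, -4.2, -0.6 and 0.2 kb. The 3 far sites form the upstream cluster, and the last lies inside the gene at its H3K4me3 peak.

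**Figure D1:**
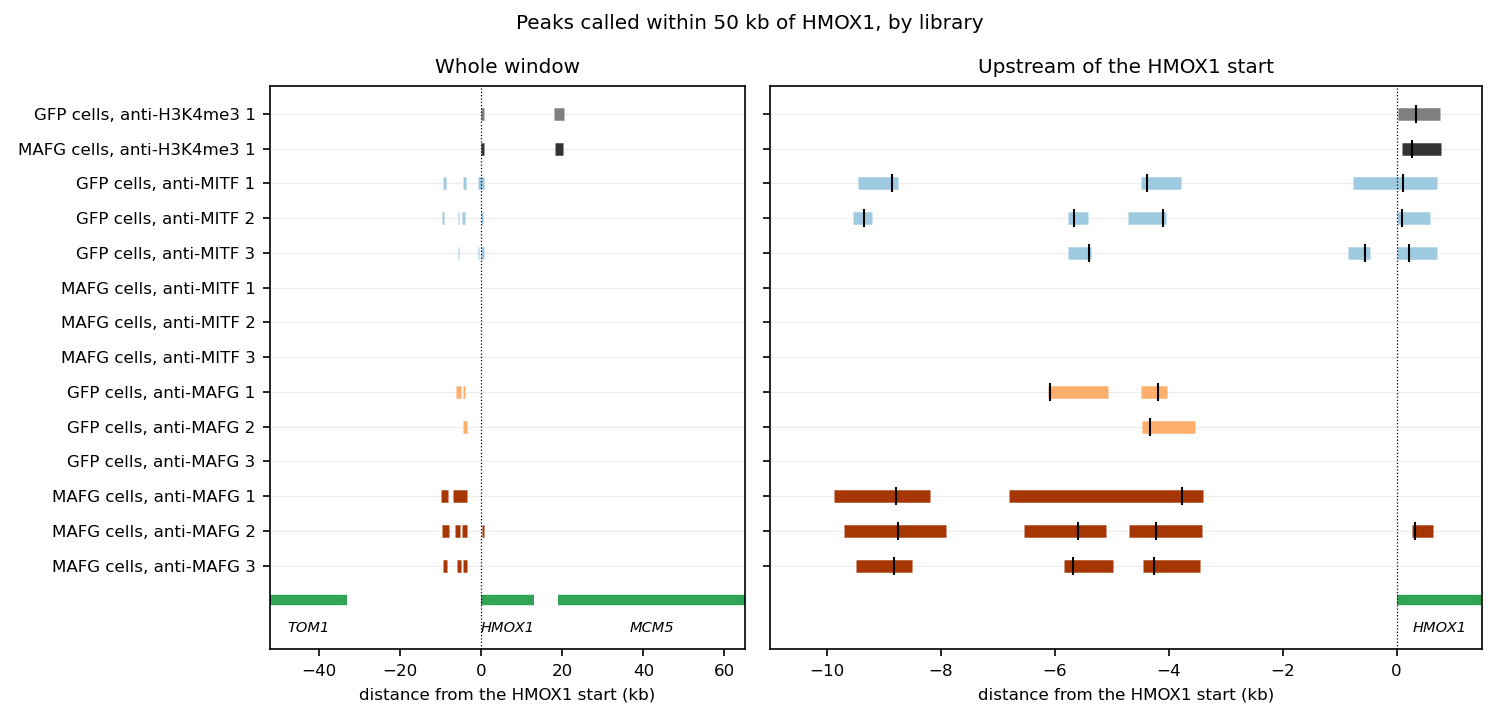
Peaks called in each of the 14 libraries (rows), drawn as bars against the distance from the HMOX1 start in kb, for the whole window (left) and for the upstream stretch (right), where black ticks are summits and green bars genes. Anti-MAFG peaks of MAFG cells cover 3 upstream sites, anti-MITF peaks occur in GFP cells only, and H3K4me3 marks the starts of HMOX1 and MCM5 in both lines.

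The site at -8.8 kb, in the position of the far upstream HMOX1 enhancer, carried the highest-ranked peak of the locus. Anti-MAFG was called there in 3 of 3 MAFG-cell and 0 of 3 GFP-cell libraries, in a merged region from 35371214 to 35373188. Of all 34223 merged anti-MAFG regions, 0.348% had this pattern, that is 119 regions. That number depended on the lists: it was 183 without MAFG-cell replicate 2 and 564 with the 1836 best peaks of each library. Without that replicate the pattern requires fewer libraries, which makes it easier to meet. The summits of the 3 libraries lay 8786, 8756 and 8821 bp upstream of the start, within 65 bp of each other. The summit held 58, 48 and 48 fragments in MAFG-cell replicates 1, 2 and 3. These were 113, 115 and 123 times the genome-wide background, a mean of 117 ± 5.62 (SD, n = 3). The spread between libraries was therefore small beside the level. The authors' fold enrichments were 16.2, 17.4 and 15.7, at ranks 58 of 1836, 29 of 1849 and 98 of 2818 in the lists, or the top 2.74 ± 1.02% on average (SD, n = 3).

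The absence of an anti-MAFG call at -8.8 kb in GFP cells was set against what a call would have needed. With the local backgrounds that GFP-cell peaks at this site show, 1.95 to 5.20 times genome-wide, a summit had to reach 6 to 14 fragments in the GFP-cell anti-MAFG libraries. That is a signal of 11.8 to 22.7 times the genome-wide level. A signal as high as in MAFG cells, at least 113 times, would have passed this limit in each of the 3 GFP-cell libraries. Signals below 11.8 times would not have been detectable. Anti-MITF, in contrast, was called at this site in GFP-cell replicates 1 and 2. These peaks were modest, with 9 and 13 fragments, 23.1 and 24.7 times background, and ranks of 19759 of 19828 and 7351 of 20117. The summit of replicate 1 was 8866 bp and that of replicate 2 was 9355 bp upstream, so the second lay outside the narrow span of the anti-MAFG summits. The peak of replicate 1 had a −log10 q of 2.01, at the edge of calling.

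Among the 119 anti-MAFG regions called in every MAFG-cell library and no GFP-cell library, the one at HMOX1 was number 2 by mean rank of fold enrichment. It was 1 of 3 such regions that overlapped an anti-MITF peak in at least 2 GFP-cell libraries. It was also 1 of 10 with a second anti-MAFG region, called in both lines, within 5 kb. It was the 1 region of the 119 with both features. Both are calls seen at HMOX1 itself, so that its region has them is a description and lends no support. Neither line had an H3K4me3 peak there, and 2 of the 119 regions overlapped one.

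The site at -4.2 kb, in the position of the nearer upstream enhancer, was the anti-MAFG site of both lines. It belongs to a merged region from 35374286 to 35377702 that was called in 3 of 3 MAFG-cell and 2 of 3 GFP-cell libraries. Calls in at least 1 library of each line were made for 8.38% of merged anti-MAFG regions. With the 1836 best peaks of each library, or when peaks had to cover 50% of the region, the locus had 0 anti-MAFG regions of both lines and 2 called in every MAFG-cell library alone. In MAFG cells the summit held 73, 55 and 61 fragments in replicates 1, 2 and 3, or 142, 132 and 157 times the genome-wide background (144 ± 12.5, SD, n = 3). In GFP cells replicate 1 had 26 fragments and replicate 2 had 14, which are 34.2 and 26.8 times background. Replicate 3 had no call, where 7 fragments, or 15.9 times background, would have sufficed. By this multiple the lowest MAFG-cell library was several times above the highest GFP-cell one. With the local backgrounds of MAFG-cell peaks, an anti-MAFG call in MAFG cells needed 38.4 to 46.3 times background here. That is above the GFP-cell values, so called values of the lines could not overlap, and their not overlapping shows nothing further. By the authors' fold enrichment the lines were much closer. It was 12.01 to 14.2 in MAFG cells and 10.6 and 7.34 in GFP-cell replicates 1 and 2. Those GFP-cell peaks ranked 3461 of 26221 and 6981 of 23409. The calling background also differed here: it was 6.43 to 7.69 times genome-wide in MAFG cells and 1.99 to 2.01 times in GFP cells. The multiple of the genome-wide level does not remove this local background, and its part in the difference was not tested.

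The order of these leading sites in MAFG cells depended on the measure. By the authors' fold enrichment the site at -8.8 kb was higher in 3 of 3 libraries, with the site at -4.2 kb at 12.5, 12.01 and 14.2. By fragments at the summit the site at -4.2 kb was higher in 3 of 3 libraries. Its mean position in the lists moved from the top 7.13 ± 1.51% by fold to the top 2.29 ± 0.617% by fragments, while that of the -8.8 kb site moved from 2.74 ± 1.02% to 4.93 ± 2.07% (SD, n = 3 each). The higher local background at -4.2 kb is the term by which these measures differ.

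**Figure D2:**
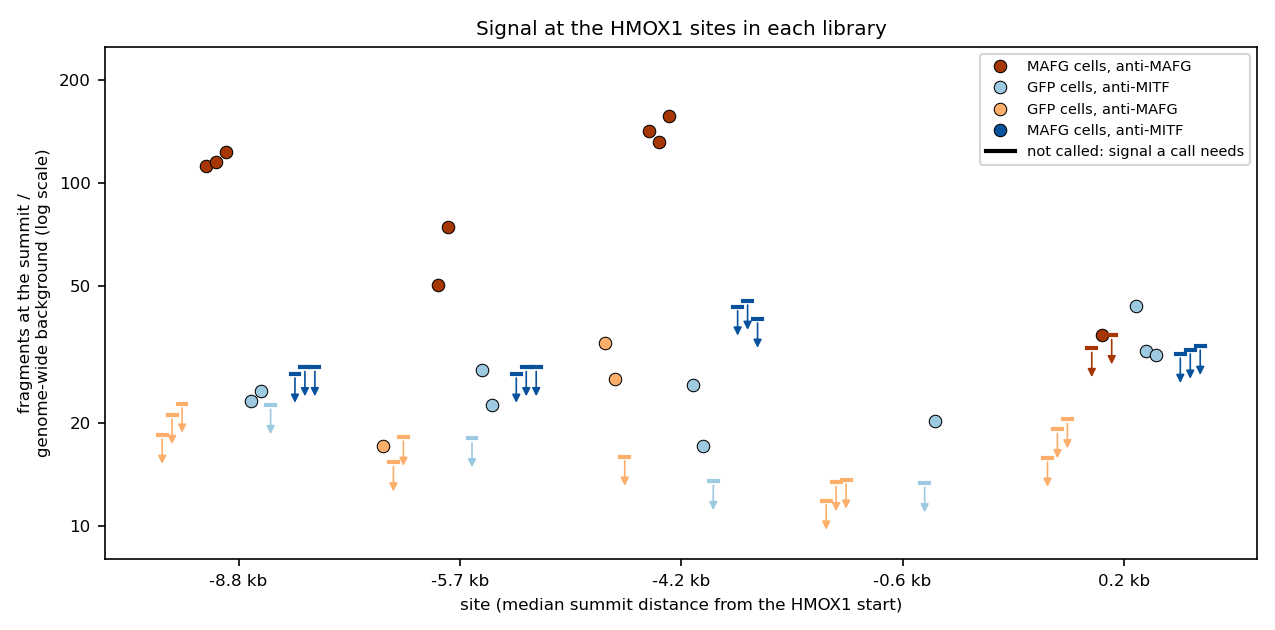
Fragments at the summit divided by the genome-wide background (log scale) at the 5 sites, 1 point per library with a peak summit there; a bar with a downward arrow gives, for a library with no call, the signal that a call would have needed at the highest local background of that line. Libraries whose wide peak covers a site but has its summit elsewhere are left blank there, as is a line with no peak at a site. Anti-MAFG points of MAFG cells at -8.8 and -4.2 kb lie between 113 and 157. GFP cells have no anti-MAFG point at -8.8 kb. Those at -4.2 kb are 26.8 and 34.2, below the 38.4 to 46.3 that a MAFG-cell call needed there.

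The site at -5.7 kb lay between these. It had a summit of its own in MAFG-cell anti-MAFG replicates 2 and 3, with 21 and 29 fragments, 50.4 and 74.6 times background. In replicate 1 it was covered by a single peak of 3417 bp, the third widest of 1836 in that list, which also took in the site at -4.2 kb. The median peak there was 608 bp wide. GFP cells had an anti-MAFG summit in replicate 1 alone, with 13 fragments (17.1 times background) at rank 23953 of 26221. The MAFG-cell values were above this one, but a MAFG-cell call here needed 26.4 to 30.9 times background. Any called MAFG-cell value therefore had to be higher than the GFP-cell one. Replicates 2 and 3 of the GFP cells could have held up to nearly the 13.4 to 18.2 times that a call needed. Without MAFG-cell replicate 1, the merged region separated into its parts, and the locus had 2 anti-MAFG regions called in both lines rather than 1.

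Anti-MAFG was weak at the HMOX1 start itself. At 0.2 kb, MAFG-cell replicate 2 had a peak with 15 fragments, 36.0 times background, at rank 1575 of 1849 and a −log10 q of 3.32. The other MAFG-cell libraries and all 3 GFP-cell libraries had none. Calls in at least 1 MAFG-cell and no GFP-cell library made up 2.09% of merged anti-MAFG regions. None of the 3 anti-MAFG regions of the locus was called in GFP cells only, the pattern of 89.5% of merged anti-MAFG regions. A call in the other MAFG-cell libraries needed 33.0 and 36.0 times background and in GFP cells 15.8 to 20.5 times, so the signal of replicate 2 was near the limit of the other MAFG-cell libraries and above that of GFP cells.

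Anti-MITF showed the opposite distribution, with its fullest call at the start. The site at 0.2 kb was called in 3 of 3 GFP-cell libraries, with 17, 17 and 14 fragments at summits 120, 101 and 212 bp past the start. Such calls in every GFP-cell and no MAFG-cell library were made for 26.5% of merged anti-MITF regions. The signal was 43.7, 32.3 and 31.5 times background (35.9 ± 6.83, SD, n = 3). These peaks were of middle rank, at the top 40.0%, 56.1% and 63.2% of their lists. In replicate 1 the peak reached from 35380332 to 35381812 and covered the site at -0.6 kb, which in replicate 3 had a peak of its own with 9 fragments, 20.3 times background.

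Upstream, anti-MITF was called at each of the 3 cluster sites in 2 of 3 GFP-cell libraries, but not in the same ones. Replicates 2 and 3 had the site at -5.7 kb, with 15 and 10 fragments (28.5 and 22.5 times background). Replicates 1 and 2 had the site at -4.2 kb, with 10 and 9 fragments (25.7 and 17.1 times). Replicate 2 was the library with all 3 upstream sites. All 4 merged anti-MITF regions of the locus were therefore regions of GFP cells only, as were 87.5% of merged anti-MITF regions. None was of MAFG cells only (0.396% of regions) or of both lines (12.1%). GFP-cell anti-MITF lists held 19828 to 20117 peaks and MAFG-cell ones 2116 to 2495, and with the 1836 best peaks of each library 0 of these regions were left.

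In MAFG cells, 0 of 3 anti-MITF libraries had a peak anywhere in the window. Only 26.2% of 20037 protein-coding genes had a peak of any of these libraries within 50 kb, so most genes shared this absence. The limits of these libraries were higher. With the local backgrounds of MAFG-cell peaks, a call needed 27.8 to 29.0 times background at -8.8 kb, 27.8 to 29.0 at -5.7 kb and 39.7 to 45.4 at -4.2 kb. The GFP-cell anti-MITF signals were 23.1 and 24.7 at the first site, 22.5 and 28.5 at the second and 17.1 and 25.7 at the last. Anti-MITF signal at the GFP-cell level was thus not detectable at -8.8 and -4.2 kb in MAFG cells, and at most at the limit at -5.7 kb. At the start, where a call needed 31.8 to 33.5 times background, 1 of 3 GFP-cell values (43.7) was above this range and 32.3 and 31.5 were within or just below it. The absent calls upstream therefore do not show a loss of anti-MITF signal at these sites.

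H3K4me3 marked the HMOX1 start in both lines, as 79.4% of merged H3K4me3 regions were called in both. The peak reached from 35381114 to 35381858 in GFP cells and from 35381195 to 35381879 in MAFG cells, starting just inside the gene. It held 31 fragments in GFP cells and 46 in MAFG cells, 54.7 and 66.3 times the genome-wide background, with 1 library per line and so no replicate check. The authors' fold enrichments were 12.6 and 7.63, the other way round, and the calling background was 2.71 times genome-wide in GFP cells and 5.11 times in MAFG cells. It overlapped the anti-MITF peaks of GFP cells, as 71.1% of H3K4me3 regions called in both lines did. The mark was a low-ranked one in each list, number 10133 of 13579 and 9469 of 11580. At the start of the neighbouring MCM5, the H3K4me3 signal was 201 times background in GFP cells and 183 times in MAFG cells, and none of the 12 anti-MAFG and anti-MITF libraries had a peak there. This was so for 22.2% of H3K4me3 regions called in both lines. None of the 3 upstream sites had an H3K4me3 peak in either line.

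The other genes of heme and iron handling and of the NRF2 and BACH1 system, 25 in all, were examined with the same window of 50 kb. An anti-MAFG region of MAFG cells only lay near 8 of 25 (32.0%), against 4.88% of 20037 protein-coding genes. One called in both lines lay near 7 of 25 (28.0%), against 14.5%, and one of GFP cells only near 18 of 25 (72.0%), against 70.8%. The list was drawn up with results of these data known, so these shares are a description. For the remaining enzymes of heme breakdown, HMOX2, BLVRA and BLVRB, no anti-MAFG region of MAFG cells lay in the window. Of the iron genes, FTH1, the ferritin heavy chain, and SLC40A1, the iron exporter ferroportin, each had a region called in all MAFG-cell and no GFP-cell libraries, and FTL, the ferritin light chain, had none. The SLC40A1 summits lay 48787 to 49166 bp from the nearer gene end, at the edge of the window, and those of FTH1 4583 to 4726 bp. The strict pattern of all MAFG-cell and no GFP-cell libraries was found near 0.794% of protein-coding genes. HMOX1 combined it with a region of both lines, as 0.319% of protein-coding genes did and none of the 25 listed genes did. The regulators BACH1, NFE2L2 (NRF2), KEAP1, MAFK and MAFG had no anti-MAFG region of MAFG cells, whereas MAFF, another small MAF, had one of both lines and one of MAFG cells only.

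Anti-MITF regions of MAFG cells only lay near none of the 25 genes, against 1.13% of protein-coding genes. Regions of GFP cells only lay near 23 of 25 (92.0%, against 75.1%), as they did at HMOX1, and those of both lines near 11 of 25 (44.0%, against 25.7%).

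Ranked by the fold enrichment of the best anti-MAFG peak within 50 kb in MAFG cells, HMOX1 stood first of the 9 genes of this group with a peak in all 3 libraries, at the top 2.74% of the lists on average. MAFF followed at 7.36% and TXNRD1, thioredoxin reductase 1, at 11.8%. The best was taken from unlike numbers of peaks. In replicates 1, 2 and 3 HMOX1 had 2, 4 and 3, MAFF had 2, 1 and 3, and TXNRD1 had 1 in each. At the other end, SLC7A11, a subunit of the cystine importer, stood at 78.5% and ABCB6, a porphyrin transporter, at 71.3%. The libraries of HMOX1 and MAFF did not overlap in this value (1.57% to 3.48% and 5.15% to 8.61%). By fragments at the summit the order was another: the MAFF peak held 75, 54 and 82, above the 73, 55 and 61 of the -4.2 kb site of HMOX1 in 2 of 3 libraries. Position differed too: the best peak of NQO1, a quinone reductase, lay 245 to 292 bp from a gene end and that of SLC7A11 176 to 300 bp, whereas that of HMOX1 lay 8756 to 8821 bp away.

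**Figure D3:**
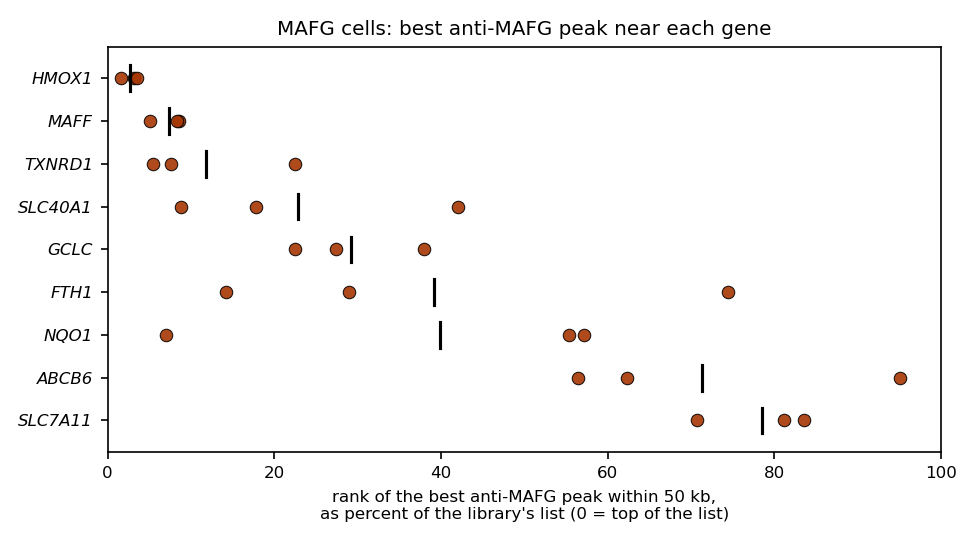
Rank by fold enrichment of the best anti-MAFG peak within 50 kb of each gene in MAFG cells, as percent of the library's list, for HMOX1 and the listed genes with a peak in all 3 libraries; points are libraries and bars their means. HMOX1 lies leftmost, at 1.57% to 3.48%, and SLC7A11 at 70.7% to 83.6%.

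Genes with a like pattern were sought over the 12 anti-MAFG and anti-MITF libraries, by the mean absolute difference of the best peak's percentile within 50 kb (0 with no peak). The closest beyond 1 Mb of HMOX1 was SHE, which encodes an adaptor protein, at a mean difference of 3.96 percentile points. PCNP followed at 6.22, OR2L5, an olfactory receptor gene, at 6.52, MAP3K14, a kinase of NF-kappaB signalling, at 8.002 and OR6S1, another olfactory receptor gene, at 8.86. The median over 20022 protein-coding genes was 44.0. Each of these 5 genes had as many libraries with a peak as HMOX1. For anti-MAFG these were 3 of 3 of MAFG cells and 2 of 3 of GFP cells. For anti-MITF they were 3 of 3 of GFP cells and 0 of 3 of MAFG cells. The genes were picked for small differences over these same 12 libraries, so like calls follow largely from the choice. The share of all genes with such calls was not counted, so this likeness is a description.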

How the data were processed

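Peaks came in 14 lists in narrowPeak layout, 1 per library, so replicates were not pooled. The lists deposited by the authors give every peak's fold enrichment, a linear ratio, with its p-value and q-value as −log10. Per the submitters' processing notes, cutadapt 1.8.1, Bowtie2 2.4.1 and MACS2 2.1.1.20160309 were used with GRCh38, and the roles and the control are not given there. Peaks on chromosomes 1 to 22, X and Y were merged per antibody where they overlapped or touched, with an overlap of at least 1 bp as a call (Python 3.11.15, pandas 2.3.3). MAFG cells only means at least 1 MAFG-cell and 0 GFP-cell libraries, unless every library is stated.

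Fragments were solved with fold = (pileup + 1) / (background + 1), a Poisson upper tail and 1 scale factor per library, a formula inferred from the values. With a tolerance of 0.001 in −log10 p it matched at least 95.6% of peaks in each list, and at most 16.8% with the scale multiplied by 0.9. The fragments a call needs are those reaching the lowest −log10 p of the list. Such values cover counting error only. Calling was tested on regions planted at places free of other peaks, and solving on values simulated with the same formula. These tests check the code and could not check the formula. Some peaks of the locus had fewer or more fragments than those simulated.

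The locus, the gene lists and the site chaining were chosen with earlier results of these data known. Named genes are those of the window, the lists and the 5 most alike. The motif search planned for the sites was not run, since their sequence was not used here.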

Additional observations from a re-analysis of the deposited data

How the results depend on the processing

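No paired analysis was possible because the results come from no test. Of 168 alternative values, 143 stayed within their limit (1.5 times for a count, 1 SD for a mean). With a −log10 q of at least 5 there was 1 anti-MAFG region of MAFG cells only, and the site at -8.8 kb averaged the top 4.01% and that at -4.2 kb the top 10.4%, of shorter lists. Ranked by −log10 p the -4.2 kb site was at 3.38%, and by fragments (chosen after seeing the data) the sites were at 4.93% and 2.29%. When peaks had to cover 50% of the region, or with the 1836 best peaks per library, 0 anti-MAFG regions were called in both lines and 2 in every MAFG-cell library alone. The equal number also left 0 anti-MITF regions at the locus and gave 564 anti-MAFG and 286 anti-MITF regions of MAFG cells only, every library, over all chromosomes. A 100 kb window added 3 anti-MAFG regions of GFP cells only and 1 anti-MITF region of both lines. It also raised anti-MITF regions of GFP cells only from 4 to 6. Summits chained within 500 bp, chosen after seeing the data, gave 2 anti-MAFG sites of both lines and 14 anti-MITF sites of MAFG cells only, every library, over all chromosomes.

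Over 6 repeats that each left out a replicate, anti-MAFG regions of the locus numbered 1 to 2 for MAFG cells only (1 without MAFG-cell replicate 2) and 1 to 2 for both lines (2 without MAFG-cell replicate 1). Over all chromosomes, regions of MAFG cells only, every library, numbered 130 to 183 for anti-MAFG (183 without MAFG-cell replicate 2) and 3 to 8 for anti-MITF, against 3 with all libraries (6 and 7 without GFP-cell replicates 1 and 3, 7 and 8 without MAFG-cell replicates 1 and 2). Listed genes with a region of MAFG cells only numbered 5 to 9, with 5 without MAFG-cell replicate 3. In these repeats every library means every library left in, so leaving out a replicate eases the requirement. The locus had 1 anti-MAFG region of MAFG cells only, every library, in each of the 6 repeats. Under the eased requirement that region could hardly be lost, so the repeats are no check of it. At -8.8, -5.7, -4.2 and 0.2 kb the MAFG-cell anti-MITF libraries needed a higher multiple of background for a call than the GFP-cell ones, which limits what their absent calls can show.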
